A study of Homo sapiens with 4 samples.

Results

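The chromosome 19 miRNA cluster is a run of closely related miRNA genes found in primates, and its mature miRNAs were followed here in exosomes, small membrane vesicles that cells release into their medium. Members were chosen by name, as any arm of a set of 36 hairpin names that runs from miR-512, miR-515 and miR-516a to miR-526b and miR-527 and adds miR-1283 and miR-1323, which gave 60 of the 2588 mature miRNAs listed for every library. The study sequenced small RNA from exosomes of 2 human colorectal cancer lines, called HCT15 and HCT29 in the sample titles, each grown as parental cells and as spheres. The parental cells were grown in complete RPMI medium, and their exosomes were collected in the same medium depleted of serum exosomes. The spheres, floating colonies of the kind used to enrich for stem-like cells, were kept for 3 weeks in DMEM/F12 with N2 supplement, 10 ng/ml bFGF and 10 ng/ml EGF. Exosomes were purified by differential ultracentrifugation, and TruSeq libraries were cut from a gel at 18 to 40 nt. No group carries a named genetic change. The growth notes of the HCT29 samples name HCT15, so the labels do not settle which line those samples are.

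Each of the 4 groups is 1 library, so no difference between groups has a replicate check and no p-value is given. Sphere growth and its medium changed together and cannot be told apart. The number of vesicles of a type and the RNA in each vesicle cannot be told apart either, as exosomes were taken in bulk. Intervals below are 95% exact binomial (Clopper-Pearson) intervals that cover counting error only.

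miRNAs are short RNAs, cut from a hairpin precursor, that guide silencing proteins to messenger RNAs through pairing with the seed near their 5′ end. A hairpin can give a mature miRNA from its 5′ arm (5p) or its 3′ arm (3p). The chromosome 19 cluster is imprinted and expressed from the paternal copy in placenta, where trophoblast cells release its miRNAs in exosomes, and it is also active in human embryonic stem cells and in some tumours. Several of its 3p miRNAs share their seed with the miR-302 and miR-372 families of pluripotent cells.

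In the GENCODE v29 annotation of GRCh38, the 36 hairpin names of the members correspond to 45 hairpins, all on the plus strand of chromosome 19 between positions 53666679 and 53762430, a span of 95.8 kb. There were 27 names with 1 hairpin and 9 with 2 hairpins. The hairpin MIR519A2 lies in an exon of the long noncoding RNA AC011453.1, and the other 44 overlap no other annotated gene on their strand. RefSeq sequences (GRCh38.p14) were found for 55 of the 60 members, in 46 distinct sequences with 29 distinct seeds.

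The sequences of the most-read members are shown first because the seeds set the groups used later. Capitals mark the seed, bases 2 to 8 counted from the 5′ end.
miR-512-3p: aAGUGCUGucauagcugagguc
miR-516b-5p: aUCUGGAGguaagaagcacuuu
miR-515-5p: uUCUCCAAaagaaagcacuuucug
miR-1323: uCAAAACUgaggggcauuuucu
miR-520a-3p: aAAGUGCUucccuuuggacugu
miR-516a-5p: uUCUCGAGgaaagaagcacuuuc
miR-518a-3p: gAAAGCGCuucccuuugcugga
miR-520f-3p: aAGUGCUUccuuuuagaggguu
miR-520a-5p: cUCCAGAGggaaguacuuucu
miR-1283: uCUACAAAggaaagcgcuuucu
miR-520g-3p: aCAAAGUGcuucccuuuagagugu
miR-518b: cAAAGCGCuccccuuuagaggu
The letters AAGUGC recur in the 3p group. Within the first 9 bases they stand in 13 of the 28 matched 3p members (46.4%) and in 0 of the 27 matched 5p members. They stand in 31 of the 2370 mature miRNAs in the RefSeq table (1.31%), those 13 members included. Only the strand of the mature RNA was searched.

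Some members cannot be separated by sequence, and among the 55 with a RefSeq sequence, 13 entries share 4 sequences. The 5 members without a RefSeq sequence were not compared and may share sequences too. Their reads are kept in full in every count below that treats shared sequences apart. The clearest case is a 5p sequence listed under 6 names (miR-518e-5p, miR-519a-5p, miR-519b-5p, miR-519c-5p, miR-522-5p and miR-523-5p), and another is the 3p sequence of miR-517a and miR-517b.
miR-519a-5p and the 5 others: cUCUAGAGggaagcgcuuucug
miR-517a-3p and miR-517b-3p: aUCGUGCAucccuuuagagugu
In HCT15 spheres the 6 entries of the first sequence had 7 or 8 reads each, 43 in all, and both entries of the second had 7. Reads of such entries may be the same reads counted under several names, which was not tested. The sums of the whole cluster, the arms and the seeds are therefore also given with each sequence counted 1 time at its highest entry, and the counts by hairpin with the reads of shared sequences left out.

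Deposited values are in RPM (reads per 1000000 reads of the library), and whole reads could be recovered from them. In HCT15 the parental library held 146648 reads and the sphere library 461226, and in HCT29 they held 110666 and 530920, with 77.8 to 89.9% on listed miRNAs. A single read was worth 6.82, 2.17, 9.04 and 1.88 RPM in that order, so a member at a few RPM could be missed in the parental libraries. A member with 0 reads could still be present at up to 20.5, 6.5, 27.1 and 5.65 RPM, the level of 3 reads. All 9 miRNAs of colon epithelium that were listed (such as miR-192-5p, miR-200c-3p and miR-375) were detected in all 4 libraries, with summed levels from 15043 to 132409.8 RPM.

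Reads of the cluster came almost entirely from the exosomes of HCT15 spheres. In HCT15 the 60 members together had 7 reads in parental and 655 in sphere exosomes, and in HCT29 they had 2 and 0. These sums correspond to 47.7 and 1420.2 RPM in HCT15 and to 18.1 and 0 RPM in HCT29. HCT15 sphere stood far above the other libraries, and HCT29 sphere, the deepest library, had none. Even in HCT15 sphere the cluster was a small part of the exosomal miRNA, at 0.158% of the listed miRNA reads (0.146 to 0.171%). The share was 0.00613% in HCT15 parental (0.00247 to 0.0126%) and 0.00207% in HCT29 parental (0.000251 to 0.00748%). In HCT29 sphere 3 reads would be a share of 0.000651%, and the exact upper limit for its 0 reads is 0.0008%.

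Within HCT15, the summed level was 29.8-fold higher in sphere than in parental exosomes (14.4 to 74.3). The ratio was 27.8 with each shared sequence counted 1 time (613 reads) and 19.2 (9.22 to 48) without miR-512-3p, the most abundant member. TMM scaling gave 43.6 and DESeq2 size factors 42.5, which both shift the median of all miRNAs upward in this comparison, by 0.548 and 0.511 on the log2 scale. The summed level of 6 blood miRNAs (miR-451a, miR-486-5p and 4 others) differed in the opposite direction, at 4023 RPM in parental and 152 RPM in sphere exosomes, with miR-451a at 0 reads in both sphere libraries. Its part in the cluster's ratio was not tested.

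More members were also detected in HCT15 spheres. In HCT15 at least 1 read was found for 3 of 60 members in parental (5%) and for 45 in sphere exosomes (75%), and in HCT29 for 1 (1.67%) and 0. Over all 2588 miRNAs the detected shares were 18.4, 27.5, 15.1 and 16.3% in the same order. Of the 45 members detected, 41 had reads in HCT15 sphere alone. The share of all miRNAs read in that library alone is not given, so the 41 has no background. HCT15 sphere also had the highest detected share over all miRNAs, so the 41 cannot be read as particular to the cluster. Depth bears on the count of detected members. In a single random draw of the 110666 reads of the shallowest library, the HCT15 sphere library kept 34 detected members with 179 reads. Other draws would vary around these values and were not made. No share over all miRNAs is given for this draw, so the 34 has no background at equal depth.

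**Figure D1:**
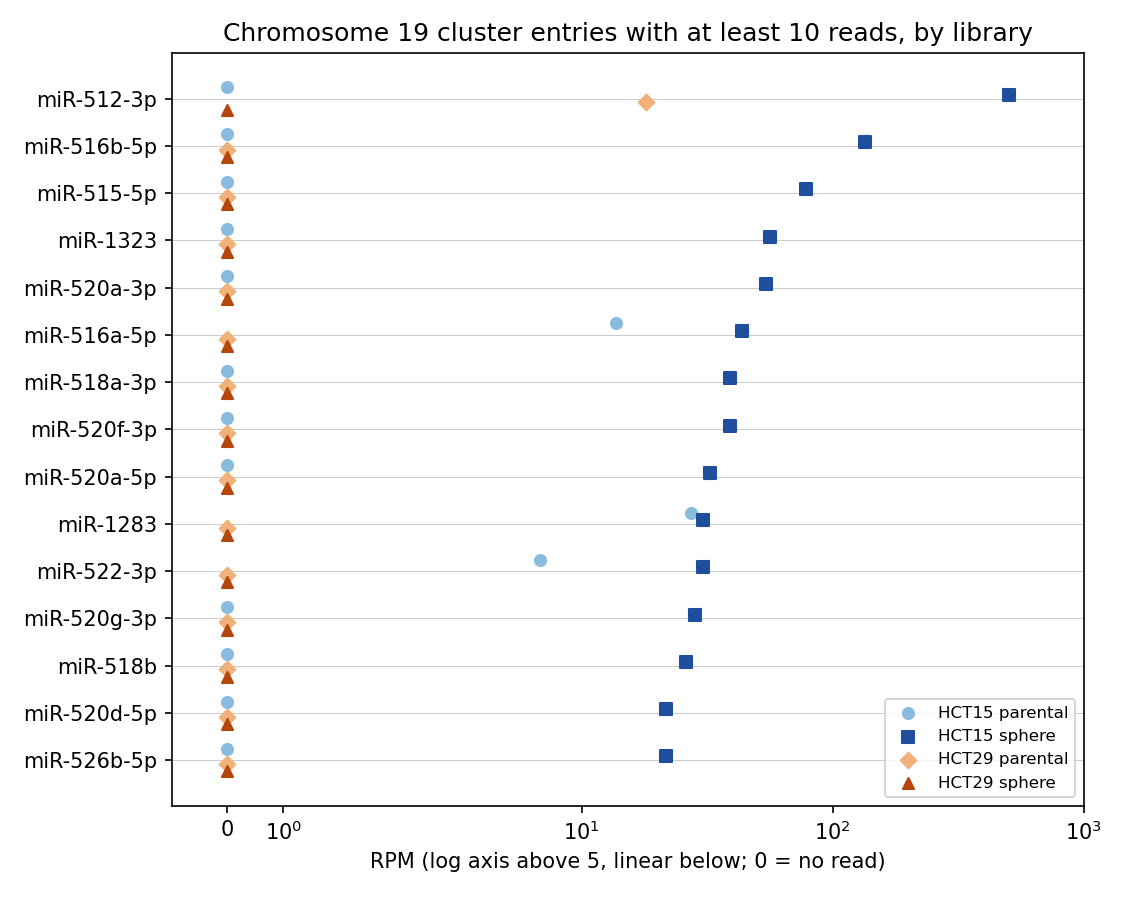
RPM of the 15 members with at least 10 reads in any library, 1 point per library, on an axis that is logarithmic above 5 RPM and linear below. HCT15 sphere (squares) runs from 505 RPM for miR-512-3p down to 21.7 RPM, HCT15 parental (circles) is above 0 for 3 members, and HCT29 parental (diamonds) for 1.

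miR-512-3p, a 3p miRNA known from placental exosomes, led the cluster. In HCT15 it had 0 reads in parental and 233 in sphere exosomes (505 RPM), and in HCT29 it had 2 (18.1 RPM) and 0. It alone held 35.6% of the cluster's reads in HCT15 sphere, 3.76 times the reads of the next member, and ranked 84 among the miRNAs of that library. Its level was at least 24.7-fold higher in sphere than in parental HCT15 exosomes, with 3 reads taken for the parental 0, and the exact lower limit was 19.9-fold. It was also the only member with a read in any HCT29 library.

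For the members below with 0 parental reads, bounds also take 3 reads for the 0 and are followed by the exact lower limit. miR-516b-5p came next, with 62 reads in HCT15 sphere (134 RPM, rank 133) and 0 in the other 3 libraries. Its level was at least 6.57-fold higher in sphere than in parental HCT15 exosomes (limit 5.19). miR-515-5p had 36 reads there (78 RPM, rank 173) and 0 elsewhere, which is at least 3.82-fold higher (limit 2.95). Both are 5p miRNAs of trophoblast cells whose 3p partners were nearly or wholly unread. miR-1323 had 26 reads in HCT15 sphere (56.4 RPM) and 0 elsewhere, at least 2.76-fold higher (limit 2.09). miR-520a-3p, which carries the seed of the miR-302 family, had 25 reads (54.2 RPM) and 0 elsewhere, at least 2.65-fold higher (limit 2). The 5 members with most reads held 58.3% of the cluster's reads in that library.

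Only miR-1283, miR-516a-5p and miR-522-3p had reads in HCT15 parental, and none of the 3 had reads in HCT29. miR-1283 had 4 reads in HCT15 parental (27.3 RPM) and 14 in HCT15 sphere (30.4 RPM), a ratio of 1.11 (0.349 to 4.64). It thus had the most cluster reads in parental exosomes, and its level there and in spheres differed by less than counting error. miR-516a-5p had 2 reads in HCT15 parental (13.6 RPM) and 20 in HCT15 sphere (43.4 RPM), a ratio of 3.18 (0.772 to 28.1). miR-522-3p had 1 read in HCT15 parental (6.82 RPM) and 14 in HCT15 sphere (30.4 RPM), a ratio of 4.45 (0.677 to 188). Both intervals include 1.

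The remaining members with at least 10 reads had them in HCT15 sphere alone. miR-518a-3p and miR-520f-3p had 18 reads each (39 RPM), at least 1.91-fold above parental (limit 1.4). miR-520a-5p had 15 reads (32.5 RPM), at least 1.59-fold above (limit 1.14). miR-520g-3p had 13 reads (28.2 RPM), miR-518b had 12 (26 RPM), and miR-520d-5p and miR-526b-5p had 10 each (21.7 RPM). The exact lower limits of these last 4 were 0.969, 0.883, 0.713 and 0.713 times the parental level, so a difference could not be read for them at the depth of the parental library.

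Another 15 members had 5 to 9 reads in HCT15 sphere and 0 in the other libraries. miR-519a-5p and miR-520c-3p had 8, and miR-517a-3p, miR-517b-3p, miR-518c-3p, miR-518e-5p, miR-519b-5p, miR-519c-5p, miR-520d-3p, miR-522-5p and miR-523-5p had 7. miR-518e-3p, miR-518f-3p and miR-519c-3p had 6, and miR-519a-3p had 5. A further 15 members had 1 to 4 reads. The last 15 had 0 reads in every library, among them miR-512-5p, miR-516b-3p, miR-519e-3p, miR-520e, miR-521 and miR-525-3p. The detected members thus ran from 1 to 233 reads within a single library.

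A minimum of 10 reads in either library of HCT15 was met by 15 members. On the log2(RPM + 1) scale 14 of them, all but miR-1283, were at least 2-fold higher in sphere, and 0 were at least 2-fold lower. Over all miRNAs that met the same minimum, 98 of 305 (32.1%) were higher and 86 (28.2%) lower. With an interval of the ratio that excluded 1 as well, 8 members were higher (miR-512-3p, miR-516b-5p, miR-515-5p, miR-1323, miR-520a-3p, miR-518a-3p, miR-520f-3p and miR-520a-5p), against 23.3% of all miRNAs. The median log2 difference was 5.07 for the 15 members and -0.116 for all 305 miRNAs. The 5.07 is the value of miR-520a-5p, where the 1 RPM added stands in for 0 parental reads. It is thus no measured fold, and the bound for that member is only at least 1.59-fold. All 15 members met the minimum through the sphere library, and with at most 4 parental reads none could have met it otherwise, so being higher there is largely built into the count, and the other 45 members met it in neither library.

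In HCT29 no member reached 10 reads in either library, and the direction of the cluster between its cultures could not be read. The 2 reads in parental and 0 reads in sphere are both under the 3-read floor, so no fold is given. Between the parental libraries the HCT29 level was 0.379 times that of HCT15 (0.0384 to 1.99), a difference within counting error. Between the sphere libraries the summed level was at least 251-fold lower in HCT29, with 3 reads taken for its 0, and the exact upper limit of the ratio was 0.00491. This bound was 171 under TMM scaling and 162 without miR-512-3p. All 15 members with at least 10 reads were at least 2-fold lower in HCT29 spheres, also with an interval that excluded 1, but so were 56% and 55.7% of all 325 miRNAs that met the minimum. Every one of the 15 members met that minimum through HCT15 sphere.

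Reads of the HCT15 sphere library came from both arms. The 5p members had 248 reads and the 3p members 403. Another 4 reads were on miR-527 (3) and miR-520b (1), which had neither an arm in the name nor a RefSeq match. Of the reads with an arm, 38.1% were 5p (34.3 to 41.9%). This balance turned on miR-512-3p: without it, 59.3% were 5p (54.4 to 64.1%). With each shared sequence counted 1 time the share was 35.0%. Detection was similar on both arms, at 20 of 27 5p members and 23 of 30 3p members. In HCT15 parental, 6 of the 7 reads were 5p, with miR-1283 counted as 5p from its RefSeq hairpin.

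Single hairpins were often one-sided. Of 24 hairpin names with both arms listed, 22 had a read, 14 on both arms, 4 on 5p alone and 4 on 3p alone. In 6 of the 14 the 5p reads are those of the sequence shared by 6 names, and without shared sequences 8 names had reads on both arms, 4 on 5p alone and 10 on 3p alone. miR-512 had 233 reads on 3p and 0 on 5p, which allows a 5p share of up to 1.57% by the exact limit. miR-516b was its opposite, with 62 reads on 5p and 0 on 3p. Its 3p entry is 18 nt long, at the lower edge of the 18 to 40 nt size cut, whose part in the 0 reads was not tested. miR-515 had 36 reads on 5p and 2 on 3p, or 94.7% 5p (82.3 to 99.4%). miR-520a gave reads from both, 15 on 5p and 25 on 3p, or 37.5% 5p (22.7 to 54.2%).

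**Figure D2:**
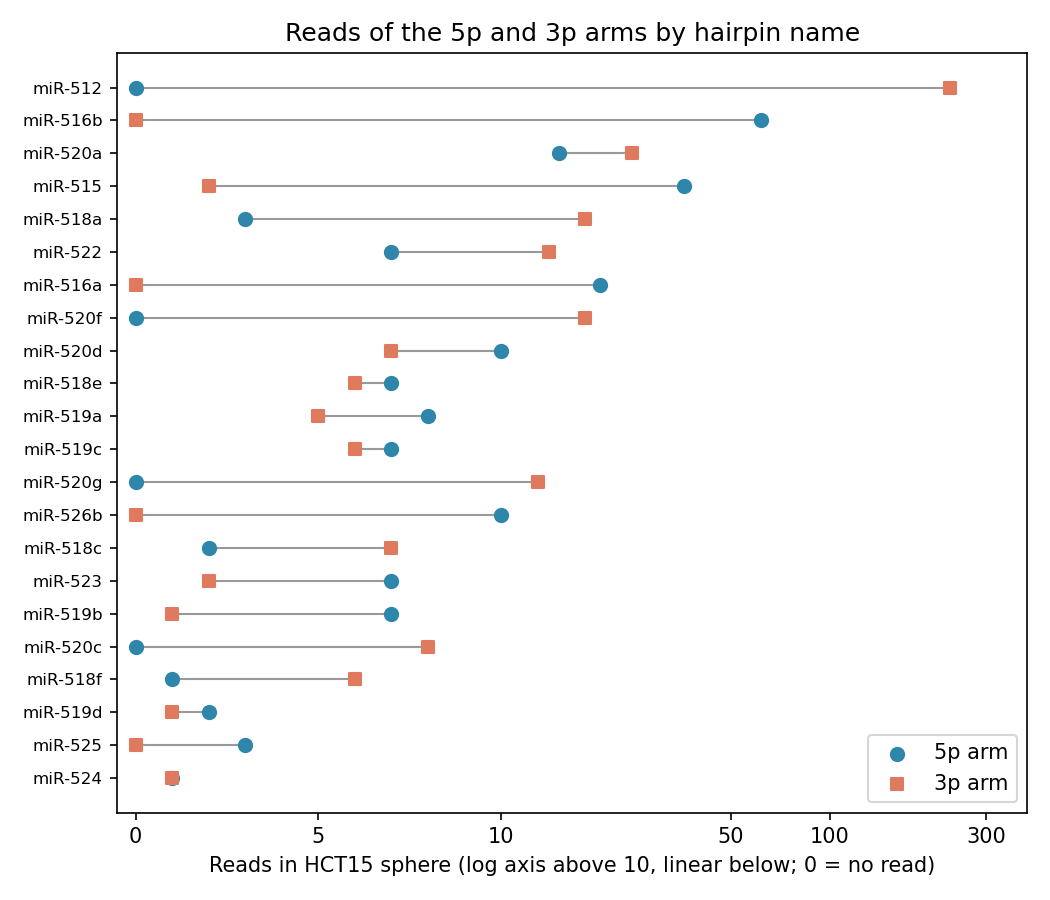
Reads of the 5p arm (circles) and the 3p arm (squares) in the HCT15 sphere library for the 22 hairpin names with both arms listed and a read on either, on an axis that is linear below 10 reads and logarithmic above. miR-512 and miR-516b lie at opposite ends, with 233 reads on 3p and 62 reads on 5p, and 14 names have reads on both arms, 6 of them only with the 5p reads of a shared sequence.

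Grouped by seed, the reads were spread over 24 of the 29 seeds. The 5 members without a RefSeq match have no seed here, so the seed groups and their sums may be incomplete. These are miR-522-3p (14 reads in HCT15 sphere), miR-518f-3p (6), miR-527 (3), miR-520b (1) and miR-520e (0). AGUGCUG (miR-512-3p) held 233 reads and UCUGGAG (miR-516b-5p) 62, each a seed of a single member. UCUAGAG had 44 reads under 10 members, which become 9 when shared sequences are counted 1 time. AAGUGCU, of miR-520a-3p, miR-520c-3p and miR-520d-3p, had 40 reads (86.7 RPM). AAAGCGC, of miR-518a-3p, miR-518b, miR-518c-3p and miR-518d-3p, had 37 reads, and UCUCCAA, of miR-515-5p and miR-519e-5p, had 36. UCGUGCA, of the miR-517 3p members, had 17, or 10 with shared sequences counted 1 time. CAAAGUG (miR-520g-3p and miR-520h) had 14 and AAGUGCA (miR-519a, 519b and 519c-3p) had 12. The 13 members with AAGUGC near the 5′ end had 318 reads together, of which miR-512-3p alone held 233, and 11 of the 13 were detected.

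Of the 29 seeds, 5 also occur in 16 miRNAs outside the cluster. The seed AAGUGCU is that of miR-372-3p and miR-373-3p, miRNAs of embryonic stem cells and germ cell tumours, and of the miR-302 family. Their sequences show how far the likeness to miR-520a-3p, printed above, extends beyond the seed.
miR-372-3p: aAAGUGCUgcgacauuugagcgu
miR-373-3p: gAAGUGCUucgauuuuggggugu
The cluster members with this seed had 0 RPM in parental and 86.7 RPM in sphere exosomes of HCT15, and 0 in both HCT29 libraries. The miRNAs outside the cluster had 3553 RPM in parental and 1778 RPM in sphere exosomes of HCT15, and 0 in both HCT29 libraries. In HCT15 sphere the outside miRNAs thus gave most of the reads with this seed, 820 against 40, and their level was lower in sphere than in parental exosomes. miR-373-3p was at 2250.3 RPM in HCT15 parental and 1375 in HCT15 sphere, and miR-372-3p at 1302 and 401.

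The seed AAAGUGC, of miR-519d-3p and miR-526b-3p, is also that of the broadly expressed growth-related miR-17 family.
miR-17-5p: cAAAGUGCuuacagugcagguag
The cluster gave 1 read with this seed in all 4 libraries. miR-17-5p and its relatives outside the cluster (miR-20a, 20b, 93, 106a and 106b-5p) gave 5530 RPM in parental and 2378 RPM in sphere exosomes of HCT15, and 9235 and 1624 RPM in those of HCT29.

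**Figure D3:**
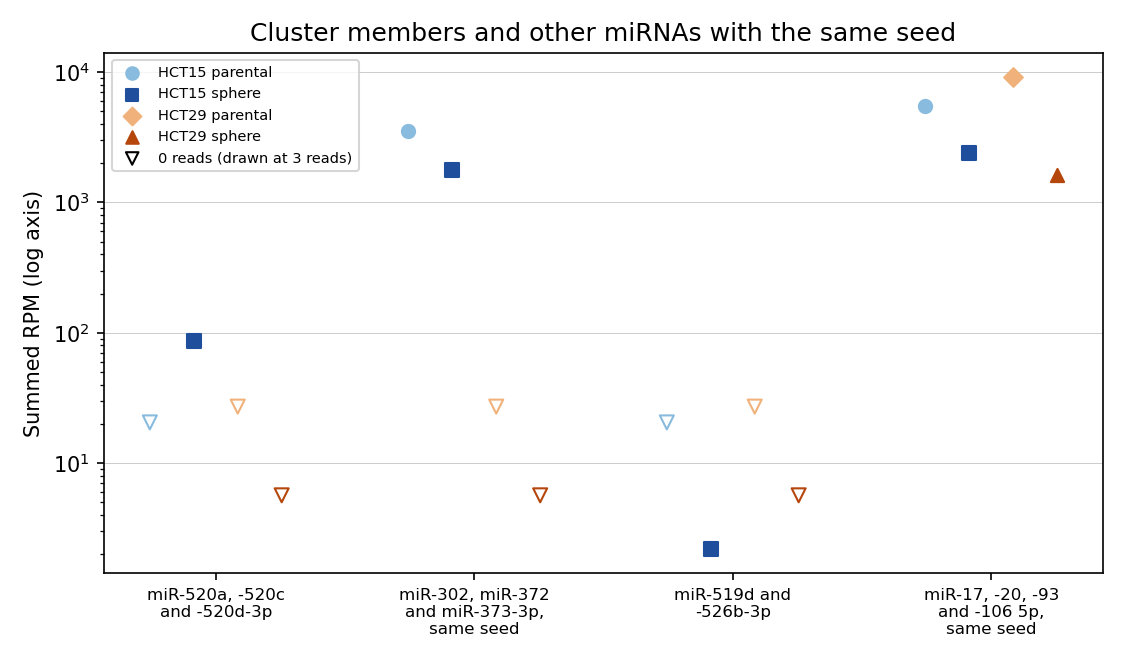
Summed RPM on a log axis for cluster members and for miRNAs outside the cluster that share the seeds AAGUGCU and AAAGUGC, in each library, with open markers at the 3-read level where there were 0 reads. Outside miRNAs lie above the cluster members wherever they were read, and the AAGUGCU miRNAs of both kinds had 0 reads in both HCT29 libraries.

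Along the chromosome, reads were found across the whole cluster in HCT15 sphere. Of the 27 hairpins of names with a single hairpin, 24 had a read, and 22 had one without the reads of shared sequences, which touch 7 of them and cannot be placed. With the span cut into 3 equal stretches from the first hairpin onward, 8 of 10, 12 of 12 and 4 of 5 single-copy hairpins had a read, with sums of 127, 99 and 28 reads. The medians were 9.5, 7.5 and 3 reads, and the ranges 0 to 40, 1 to 17 and 0 to 21, so the stretches overlapped. Without shared sequences, 8, 10 and 4 of these hairpins had a read, with sums of 106, 78 and 21 reads and medians of 4.5, 6.5 and 3. The first hairpins, both copies of miR-512, cannot be told apart by the mature sequence and share the 233 reads. Near them, at 5.3 kb from the start of the cluster, miR-1323 had 26 reads, while miR-520e at 9.0 kb had 0. Neighbouring hairpins could thus differ widely within the same library.

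**Figure D4:**
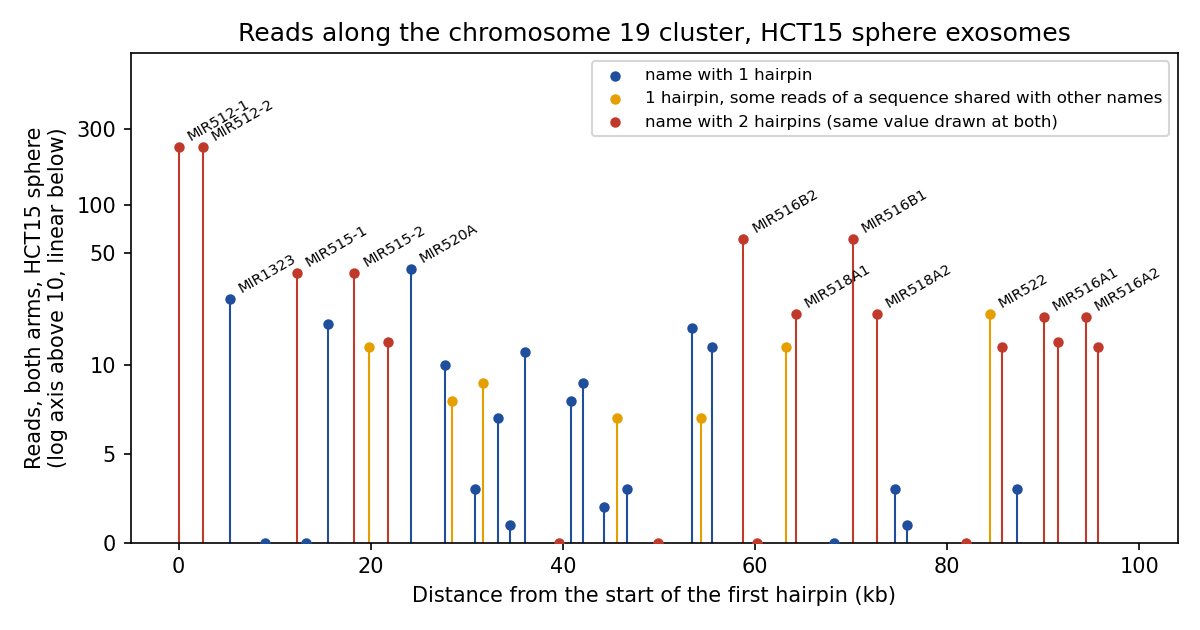
Reads in the HCT15 sphere library, both arms summed, for each member hairpin by its distance in kb from the start of the first hairpin; hairpins with a second copy, and those with reads of a sequence shared with other names, are marked apart because those reads cannot be assigned. Reads occur along the whole 95.8 kb, and the 2 copies of miR-512 at the start share the highest value.

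The miR-371 to miR-373 genes begin 25.2 kb beyond the last cluster hairpin on the same strand, and their miRNAs differed in the opposite direction in HCT15. Their 8 entries summed to 9717 RPM in parental and 5249 RPM in sphere exosomes of HCT15, and to 0 in both HCT29 libraries. The sphere level was 0.540 times the parental level (0.506 to 0.577), where the chromosome 19 cluster had 29.8. Both groups of genes were unread in HCT29 spheres, where the miR-371 to miR-373 sum was at least 929-fold lower than in HCT15 spheres. The miR-302 cluster, the other family of pluripotent cells, had 1 read in HCT15 sphere (miR-302c-3p) and 0 elsewhere.

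Another large imprinted miRNA cluster, in the DLK1-DIO3 region of chromosome 14, was also higher in HCT15 spheres. Its 92 entries summed to 1459 RPM in parental and 4627 RPM in sphere exosomes of HCT15, with 29 and 67 entries detected. In HCT29 they summed to 172 and 20.7 RPM, with 7 entries detected in each. The ratio of sphere to parental in HCT15 was 3.17 (2.75 to 3.67), below the interval of the chromosome 19 cluster. The DLK1-DIO3 miRNAs also differed in being well detected in parental HCT15 exosomes, with 214 reads against 7.

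Fibroblast and smooth muscle miRNAs were also higher in HCT15 spheres. The 6 listed summed to 1275 RPM in parental and 5602 RPM in sphere exosomes of HCT15, a ratio of 4.39 (3.79 to 5.12), and to 1735 and 194 RPM in those of HCT29. Of the 6, 4 and 6 were detected in HCT15 and 4 and 3 in HCT29. miR-145-5p, a defining marker, had 1 and 4 reads in HCT15 and 3 and 0 in HCT29. miR-199a-3p and miR-199b-3p have identical values in every library, at 95.5 RPM each in HCT15 parental and 1123 RPM each in HCT15 sphere. The sums and the ratio include both, so they may count the same reads under both names. In HCT29 parental this list stood at 1735 RPM while the chromosome 19 cluster had 2 reads. Its part in the cluster's level was not tested.

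**Figure D5:**
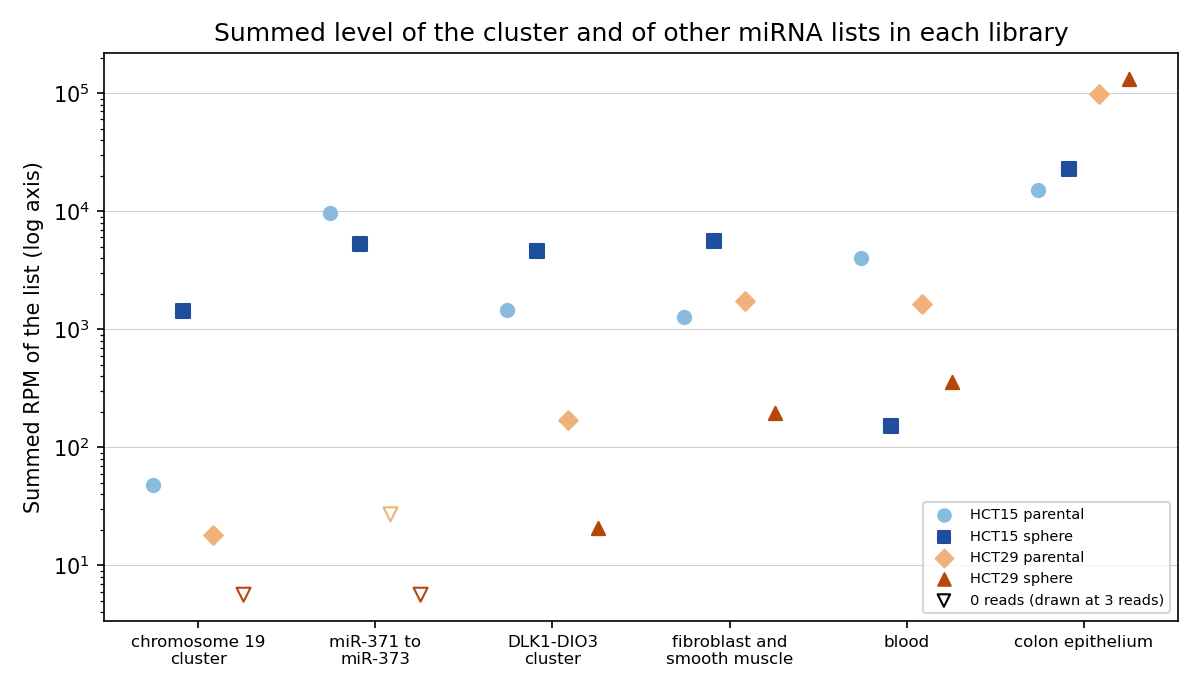
Summed RPM on a log axis of the chromosome 19 cluster and of 5 other miRNA lists in each library, with open markers at the 3-read level where there were 0 reads. The cluster is at 1420.2 RPM in HCT15 sphere and at most 47.7 in the others, while miR-371 to miR-373 is highest in HCT15 parental at 9717 RPM.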

How the data were processed

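Small RNA of exosomes was measured in 4 libraries, 1 for each line and culture. The authors deposited RPM (reads per 1000000 reads) for 2588 mature miRNAs, per the file headers of the HCT15 tables. The deposited HCT29 tables name no unit and were read as RPM from their values. The genome build was hg19 per the submitters' processing notes, and the aligner is not given in the sources used here. Every nonzero value was a whole multiple of a single read within 0.1 read, so reads were recovered by division and 0 columns were left out.

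Ratios of RPM have 95% conditional binomial (Clopper-Pearson) intervals on recovered reads. A ratio against 0 reads is a bound with 3 reads in that library. Calls used log2(RPM + 1) with a minimum of 10 reads in either library of a comparison and a 2-fold threshold, over all miRNAs. With 1 library per group no test was made: an additive fit of line and culture would leave 1 residual degree of freedom and would treat the lines as replicates of each other. Alternatives were TMM scaling, DESeq2 size factors, listed miRNA reads as the total, thinning (a single random draw each time), other read minimums and pseudocounts, shared sequences counted 1 time, and leaving out miR-512-3p. Leaving out the reads of shared sequences was added after seeing the data. Intervals and read recovery were tested on simulated data.

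Members with at least 10 reads are named with values and those with 5 to 9 by name. Lists of other miRNAs are given as sums, with a few of their miRNAs as examples. Outside miRNAs are named for 2 shared seeds and, by rule, for the 8 with most HCT15 sphere reads among those read almost only there. The members and lists were chosen with earlier results of these data known. Python 3.11.15, SciPy 1.17.1, pandas 2.3.3, edgeR 4.0.16 and DESeq2 1.42.0 were used.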

Additional observations from a re-analysis of the deposited data

Results flagged for a closer look

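The parental to sphere values of the cluster were not alike in the 2 lines. In HCT15 the summed level of the sphere library was 1372 RPM above the parental library (655 against 7 reads). In HCT29 the sum was 2 reads in parental and 0 in sphere exosomes, both under the 3-read floor, and the exact interval of the ratio, 0 to 1.11, includes 1, so no direction can be read there. Of the 1372 RPM, 505 RPM are miR-512-3p, which also holds both HCT29 reads and so is no separate case. Each group is 1 library, and the difference between the lines was not tested.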

How the results depend on the processing

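No paired analysis was possible because the reported values come from no test, and with 1 library per group no replicate could be left out. Of 126 recomputed values, 18 moved and 108 stayed close to the reported value, but 36 of the 108 are counts with 0 members to test, which could not move. Others of the 108 were also fixed in advance, so the 108 is no measure of stability. They include counts higher in HCT29 than HCT15 spheres, as HCT29 spheres had 0 cluster reads. Seed groups that hold no shared sequence could not change either when such sequences were counted 1 time. The count of members at least 2-fold higher in HCT15 spheres was 44 of 45 with no read minimum, 29 of 30 with a minimum of 5 reads, 6 of 6 with 20 reads, and 3 of 3 after thinning. The count lower in HCT29 than HCT15 spheres was 45, 30 and 6 under the same minimums. The share of all miRNAs called is not given for these minimums or for thinning, so none of these counts has a background. With no minimum, 1 member was lower in HCT29 spheres than in HCT29 parental, and 1 was higher and 3 lower in HCT29 than HCT15 parental exosomes, all on 4 reads or fewer. Every member in the HCT15 and sphere counts with a minimum entered through HCT15 sphere reads, so these counts are set by the minimum and show no stability. The ratio of HCT29 to HCT15 spheres, with 3 reads for 0, was 0.00398 as reported, 0.00675 with DESeq2 size factors (at least 148-fold lower) and 0.00618 without miR-512-3p. Asking for 3 reads left 1 detected member in HCT15 parental, 0 in HCT29 parental and 34 in HCT15 sphere. The 5p share without miR-512-3p was 59.3%, which turns a 3p majority into a 5p majority. Without shared sequences, an alternative chosen after seeing the data, 8 hairpin names rather than 14 had reads on both arms. Counting shared sequences 1 time left 9 reads for the UCUAGAG seed and 10 for UCGUGCA. These changes follow from how many reads or members each setting keeps, apart from the scaling. Depth limits the parental libraries most, where 3 reads are 20.5 and 27.1 RPM.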

Other observations

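Apart from the members, 2 other miRNAs with names of the same cluster were read in HCT15 sphere alone. miR-498, whose hairpin lies 7.5 kb from the first cluster hairpin, had 3 reads (6.5 RPM), and the entry miR-517-5p, singled out after its values were seen, had 9 reads (19.5 RPM). The name miR-517-5p lacks the letter of miR-517a, 517b and 517c, so it is no member by the rule and enters no arm, seed or hairpin count. The hairpin reads of those 3 names are 3p reads alone.

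A few miRNAs outside the cluster shared its pattern across the 4 libraries, measured as at least 20 reads in HCT15 sphere and at least 95% of the RPM summed over the libraries found there. The pattern was taken from the cluster itself, so only outside miRNAs are counted, and 9 of 205 with that many reads met it. The 8 with most reads were miR-146a-5p (7479 reads, 16215 RPM), an inflammation-induced miRNA, miR-654-3p of the DLK1-DIO3 cluster (339 reads), miR-125b-1-3p (231), miR-199a-5p (176), miR-424-5p (49), miR-100-3p (46), miR-214-3p (37) and miR-1469 (33), and the ninth was miR-889-3p (29), also of the DLK1-DIO3 cluster. miR-146a-5p was also read in the other libraries, at 184 RPM in HCT15 parental, 45.2 in HCT29 parental and 132 in HCT29 sphere. miR-199a-5p and miR-214-3p, fibroblast and smooth muscle miRNAs, had 0 reads in the other 3 libraries. The rest of that list did not share this pattern and was read in other libraries too. miR-143-3p had 158 reads in HCT15 parental, 131 in HCT29 parental and 89 in HCT29 sphere. miR-199a-3p had 14, 29 and 7 in the same order.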
